A study of Homo sapiens with 4 samples.

Results

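Messenger RNA of NCI-H460 cells treated with 3-deazaneplanocin A (DZNep) was compared with that of cells treated with the solvent DMSO, both without radiation. NCI-H460 is an established cell line from a human non-small cell lung carcinoma. The DZNep 0 Gy library came from cells that received 0 Gy of gamma radiation and then 2 uM DZNep for 48 h. The DMSO 0 Gy library came from cells that received 0 Gy and then DMSO for 48 h. The series holds 1 further library of each treatment after 4 Gy, and these serve here as a separate pair of libraries. All 26364 gene symbols of the deposited count tables were looked at, and the 8143 that reached 10 CPM (counts per 1e6 counts of the library, scaled between libraries) in at least 1 of the 0 Gy libraries were compared. Each group was 1 library, so the differences below stand without replicates, and no test was run. The values describe 2 libraries, and nothing in the labels says whether these came from separate cultures.

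DZNep is an analogue of adenosine that blocks the enzyme S-adenosylhomocysteine hydrolase, encoded by AHCY. The hydrolase clears the by-product that every S-adenosylmethionine-dependent methyltransferase releases, and when the by-product builds up these enzymes are inhibited. EZH2, the enzyme at the core of PRC2, a Polycomb complex that places a repressive methyl mark on histone H3, is the best known of the enzymes that DZNep slows. DZNep has been studied in cancer cells as a means of lowering that mark, and it also acts on many other methylation reactions.

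The libraries held 128255695 counts (DZNep 0 Gy) and 136594350 counts (DMSO 0 Gy), and the 4 Gy libraries 116234177 and 112461380. Epithelial keratins fitted the cell line's label: KRT8 stood at 1944 CPM with DZNep and 709 CPM with DMSO, and KRT18 at 1796 and 633 CPM. KRT19 was nearly level at 146 and 153 CPM, and KRT7 stood at 10.8 and 6.94 CPM. The epithelial adhesion genes EPCAM and CDH1 were under 1 CPM in all 4 libraries. Of the mesenchymal markers, VIM (755 and 867 CPM at 0 Gy) and FN1 (19080 and 9950 CPM) were abundant. ZEB1 stood at 18.6 and 13.1 CPM, and CDH2 was near the floor (1.66 and 1.52 CPM). All 4 lung lineage markers (NKX2-1, SFTPB, SFTPC, NAPSA) and all 4 endothelial markers were under 1 CPM in every library. The summed level of 6 blood markers was 23.2 CPM with DZNep and 21.3 CPM with DMSO, with PTPRC at 0 and 0.0578 CPM and HBB at 0 in both. That of 6 fibroblast markers was 22.7 and 27.9 CPM, with COL1A1 at 8.90 and 13.9 CPM.

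Of the 8143 genes, 294 were at least 2-fold higher with DZNep and 294 at least 2-fold lower. Each direction is 3.61% of the genes compared, and both together are 7.22%. These shares are the background for every gene list below. The ratio was within 1.5-fold for 76.3% of the genes, and the log2 ratios had a median of -0.02 and a standard deviation across genes of 0.60. A difference of at least 4-fold was seen for 48 genes in the higher and 37 in the lower direction. The genes on either side were not equally abundant. Among the 152 genes that reached 1000 CPM in either library, 13 (8.55%) were at least 2-fold higher and 1 was lower. Among the 3395 genes at 10 to 30 CPM, 3.68% were higher and 4.54% lower.

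**Figure D1:**
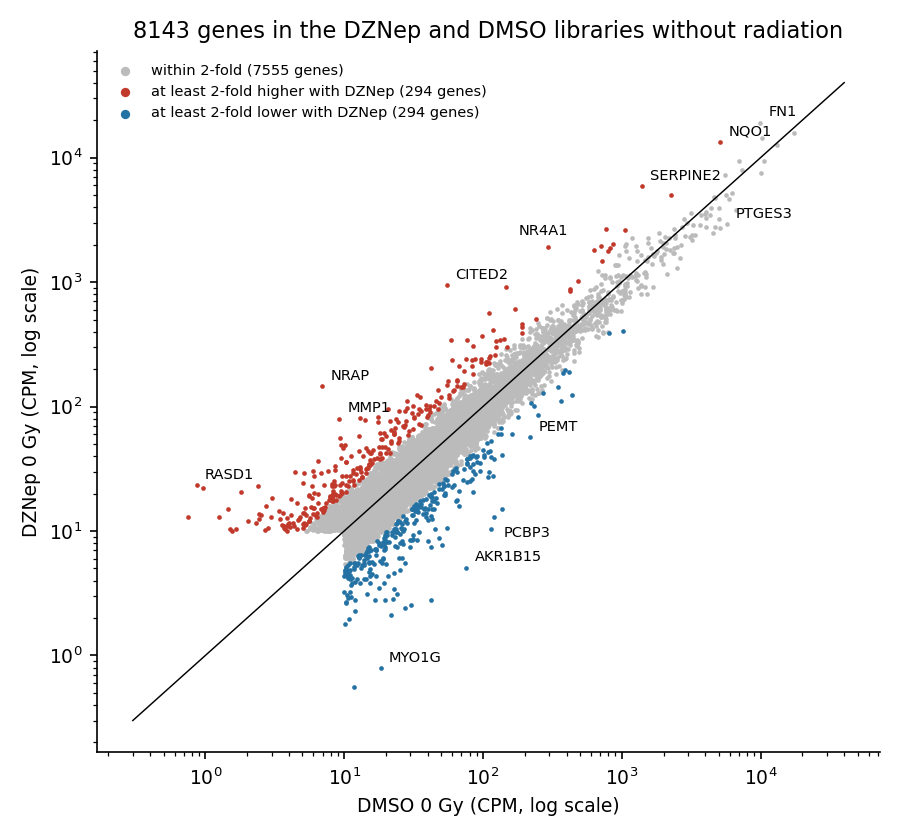
Level of each of 8143 genes in the DMSO 0 Gy library (horizontal, CPM, log scale) and the DZNep 0 Gy library (vertical, CPM, log scale). The line marks equal levels. The 294 genes at least 2-fold higher with DZNep lie above it in red and the 294 lower genes below it in blue, with 13 red points and 1 blue point among genes at 1000 CPM or more.

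The 15 highest ratios belonged to genes whose DMSO 0 Gy level ran from 0.751 CPM (IL1RL1) to 295 CPM (NR4A1). RASD1, a Ras-family GTPase known to be induced by hormones and stress, stood at 23.5 CPM with DZNep and 0.867 CPM with DMSO at 0 Gy, and at 17.9 and 0.374 CPM at 4 Gy. Its log2 ratio at 0 Gy was 4.74, with a 95% interval of 4.50 to 5.04. Such intervals cover counting error between the libraries and nothing else. TNS4, a tensin of focal adhesions, stood at 22.03 against 0.968 CPM at 0 Gy (4.49) and at 22.03 against 2.11 CPM at 4 Gy. NRAP, an actin-anchoring protein known from muscle, stood at 146.0 against 6.93 CPM (4.39) and at 105 against 14.8 CPM. For these 3 genes both DZNep libraries were above both DMSO libraries by more than 4-fold.

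CITED2, a transcriptional co-regulator that competes with hypoxia-inducible factor for its coactivators, stood at 945 CPM with DZNep and 55.0 CPM with DMSO, and at 1034 and 117 CPM at 4 Gy. Its log2 ratio of 4.10 was the largest among genes reaching 100 CPM after that of NRAP. IL1RL1, the receptor of the cytokine IL33, stood at 12.9 against 0.751 CPM (4.07). ANKRD1, a muscle ankyrin repeat protein and a common reporter of YAP activity, stood at 20.5 against 1.79 CPM (3.50). Next came the ubiquitin ligase subunit gene FBXO32 (3.37), the neuronal adhesion gene NFASC (3.35), the matrix glycoprotein gene THBS1 (3.26) and the collagenase gene MMP1 (3.11). AQP3, a water and glycerol channel, had a log2 ratio of 2.76, ATP8B4, a P-type ATPase, 2.76, FRMD3, a FERM domain protein, 2.68, and LTBP1, which tethers latent TGF-beta to the matrix, 2.63.

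Among genes that reached 100 CPM, the orphan nuclear receptor gene NR4A1 stood at 1902 CPM with DZNep and 295 CPM with DMSO, a log2 ratio of 2.69, and at 1666 and 509 CPM at 4 Gy. Its relative NR4A3 stood at 203 against 42.0 CPM (2.27). RGS2, which turns off G protein signals, stood at 906 against 146 CPM (2.63), and GPRC5A, an orphan receptor of lung epithelium, at 565 against 111 CPM (2.34). NDRG1, a gene induced by hypoxia and differentiation, stood at 342 against 58.6 CPM (2.54). SERPINE2, a secreted inhibitor of thrombin and urokinase, stood at 5858 against 1394 CPM (2.07), the highest level with DZNep in this group.

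In absolute level the largest gains were those of FN1 (fibronectin, 9128 CPM more with DZNep), NQO1 (a quinone reductase, 8164 CPM), SERPINE2 (4464 CPM) and the cytoskeletal actin gene ACTB (4058 CPM). CD55, which protects cells from complement, gained 2737 CPM, ACTG1 2332 CPM, and MYADM, a membrane protein of cell spreading, 1882 CPM. FN1 stood at 22410 and 17890 CPM in the 4 Gy pair, so its log2 ratio was 0.94 without and 0.32 with radiation. The largest losses were those of the non-coding RNA LRRC75A-AS1 (-2872 CPM), PTGES3, a co-chaperone of HSP90 (-2824 CPM), PCBP2, an RNA-binding protein (-2648 CPM), and the ribosomal protein genes RPL13A (-2356 CPM), RPL28 (-2043 CPM) and RPL17 (-1905 CPM). PTGES3 stood at 5755 CPM in the DMSO 0 Gy library and at 2930, 2613 and 3032 CPM in the DZNep 0 Gy, DZNep 4 Gy and DMSO 4 Gy libraries, so its loss was a high value in DMSO 0 Gy alone. GAPDH, often used as a reference gene, stood at 15890 against 17520 CPM (-0.14).

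The 15 lowest ratios are given next. AKR1B15, an aldo-keto reductase, stood at 5.07 CPM with DZNep and 76.0 CPM with DMSO (-3.90), and at 4.19 and 60.6 CPM at 4 Gy. Its near-identical neighbour AKR1B10 stood at 110 against 366 CPM (-1.74), so reads may have been split between the pair and both values are uncertain. FAM19A5, a secreted protein of the nervous system, stood at 2.81 against 42.1 CPM (-3.90), and DLGAP1, a scaffold of synapses, at 2.54 against 30.4 CPM (-3.57). PCBP3, an RNA-binding protein, stood at 10.5 against 115 CPM (-3.46) and at 17.4 against 143 CPM at 4 Gy. KMO, the kynurenine hydroxylase of tryptophan breakdown, stood at 2.12 against 21.8 CPM (-3.35) and at 1.81 against 16.7 CPM. In AKR1B15, FAM19A5, DLGAP1, PCBP3 and KMO both DZNep libraries were below both DMSO libraries.

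The list of the 15 lowest went on with the non-coding RNAs LOC388282 (-4.37) and OLMALINC (-3.49), the coiled-coil gene CCDC92 (-3.22), C7orf50 (-2.99), the receptor-like gene LRP11 (-2.94), LMF1, a lipase maturation factor (-2.82), the zinc finger gene ZSCAN31 (-2.73) and PDE9A, a cyclic GMP phosphodiesterase (-2.72). Its remaining members, MYO1G and DENND4C, did not behave alike in both pairs and are described with the 4 Gy libraries. At 100 CPM or more, low genes also included PARVB, a focal adhesion parvin (-2.09), KIAA0101, a PCNA-binding protein of S phase (-1.99), PEMT, which makes phosphatidylcholine with S-adenosylmethionine (-1.95), HADH, an enzyme of fatty acid oxidation (-1.91), and LRP5, a WNT co-receptor (-1.75).

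**Figure D2:**
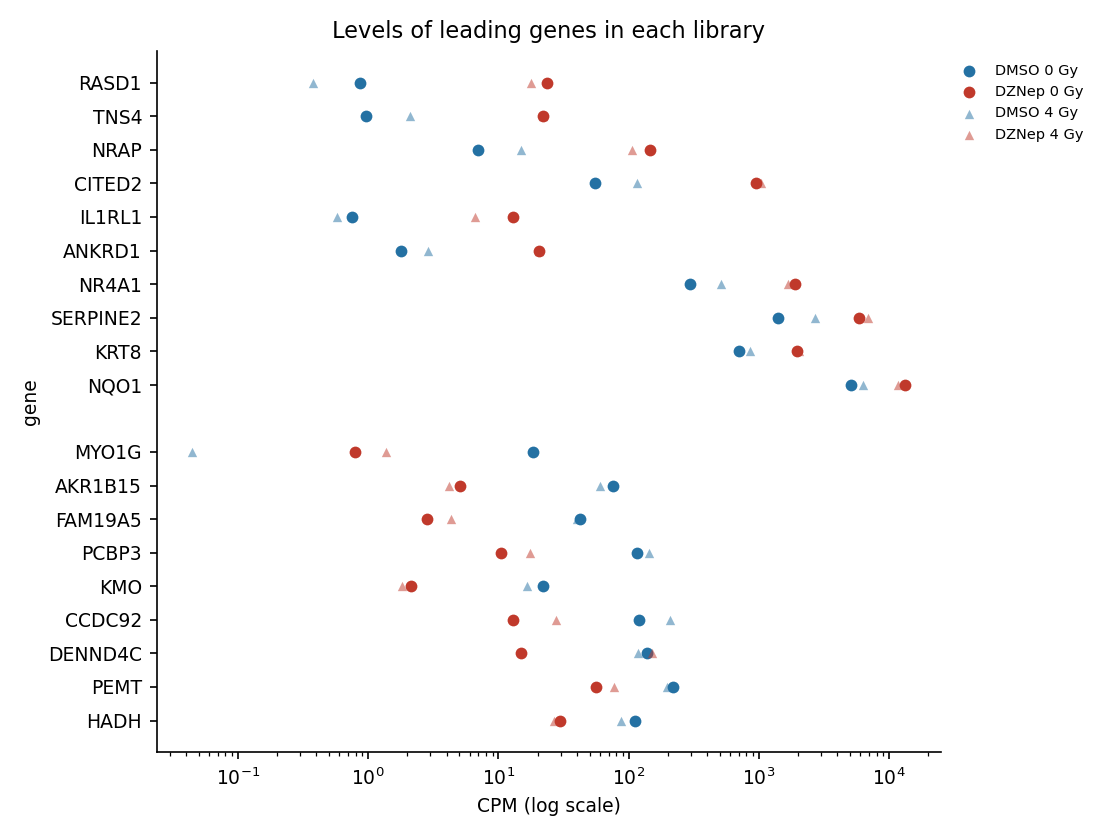
CPM (log scale) of 19 genes in each of the 4 libraries: circles for 0 Gy, triangles for 4 Gy, red for DZNep and blue for DMSO. In the upper genes the red symbols lie to the right of the blue ones at both doses. In the lower genes they lie to the left, except for MYO1G, whose triangles are reversed, and DENND4C, where the DZNep 0 Gy circle stands alone.

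A promoter was at hand for 224 of the 294 higher genes (76.2%) and 235 of the 294 lower genes (79.9%), from RefSeq on GRCh38.p14, 250 bases before to 50 after the first listed start. Both shares are under 80%, so a comparison of promoter letters between these genes and the rest is void, and the counts here describe the available sequences only. Letters of several kinds of site were sought. On either strand and anywhere in the window, the ETS core was in 13.4% of the higher, 23% of the lower and 31.1% of all genes compared. The NRF1 site was in 5.36%, 14.9% and 16.3%. Apart from TATAAA, the other sites are not reported here. The letters TATAAA were sought on the gene's strand, with the whole match lying 21 to 40 bases before the start. They were in 21 of the 224 promoters of higher genes (9.38%) and 4 of the 235 of lower genes (1.7%). Over all genes compared they were in 102 of 6684 (1.53%). On either strand and anywhere in the window they were in 13.8%, 4.68% and 5.33%, and in 12% of all 27305 promoters of the table. Below are the 100 bases before the start of 5 of the 21 higher genes with these letters, in capitals, and of CITED2 and RASD1, which lack them. They were picked after their values were seen, from genes with log2 ratios of 2.10 or more, to show promoters with and without these letters, and are not all such genes. AQP3 lies at chr9:33447594-33447693 (minus strand), BTG1 at chr12:92145847-92145946 (minus), DKK1 at chr10:52314181-52314280 (plus), CCL20 at chr2:227813742-227813841 (plus), PTGS2 at chr1:186680424-186680523 (minus), CITED2 at chr6:139374649-139374748 (minus) and RASD1 at chr17:17496396-17496495 (minus).
AQP3: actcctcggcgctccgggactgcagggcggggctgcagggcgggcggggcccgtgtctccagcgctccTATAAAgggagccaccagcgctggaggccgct
BTG1: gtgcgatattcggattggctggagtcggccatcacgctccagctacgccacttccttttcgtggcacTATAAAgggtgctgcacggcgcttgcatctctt
DKK1: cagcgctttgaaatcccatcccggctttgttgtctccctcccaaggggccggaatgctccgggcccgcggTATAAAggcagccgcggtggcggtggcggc
CCL20: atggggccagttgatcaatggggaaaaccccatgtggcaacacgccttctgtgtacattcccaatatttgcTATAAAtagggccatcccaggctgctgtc
PTGS2: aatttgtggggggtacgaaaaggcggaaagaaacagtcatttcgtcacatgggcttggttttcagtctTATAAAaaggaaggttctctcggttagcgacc
CITED2: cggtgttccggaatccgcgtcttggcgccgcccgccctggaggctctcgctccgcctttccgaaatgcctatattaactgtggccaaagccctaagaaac
RASD1: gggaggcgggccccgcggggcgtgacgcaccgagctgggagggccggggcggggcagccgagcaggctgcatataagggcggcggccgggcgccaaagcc
In AQP3 and PTGS2 the capitals begin 32 bases before the start, in BTG1 33, in DKK1 30 and in CCL20 29. CCL20 has 1 CpG in the stretch shown and RASD1 13, so these promoters range from CpG-poor to CpG-rich. CITED2 and RASD1 lack the exact letters but hold similar ones near the same place (tatatt and tataag). A match of letters is a description and not a bound site.

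Early response genes, whose transcription follows within minutes of a growth factor or stress signal, held more high ratios than any other list by count. The lists were drawn up with earlier results of these data known, so this rank is a description only. Of 39 compared, 19 were at least 2-fold higher and 1 lower, and 34 were above 0. Their median log2 ratio was 0.97, against -0.02 for all genes, and 0.89 for the same genes in the 4 Gy pair. Summed, the list took 0.760% of all counts with DZNep and 0.298% with DMSO. Besides RASD1, CITED2, NR4A1 and NR4A3, it included the anti-proliferative gene BTG1 (78.4 against 14.1 CPM, 2.47), the stress gene IER3 (234 against 60.1 CPM, 1.96), the AP-1 gene JUNB (1.84), the Krüppel-like factor genes KLF10 (1.86), KLF4 (1.48) and KLF2 (1.46), and the inhibitor of differentiation genes ID1 (1.32), ID2 (1.23) and ID3 (1.12). CREM, a cAMP-responsive regulator, was the member at least 2-fold lower (195 against 393 CPM, -1.01), and with DESeq2's size factors 0 members were lower.

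Some feedback regulators of growth factor signalling were also higher. Of 39 genes of MAP kinase feedback and the EGF family, 7 were at least 2-fold higher and 0 lower, and 10 were below 0 (median 0.21). In the 4 Gy pair 4 of the 39 were higher and 2 lower. ERRFI1, an inhibitor of the EGF receptor, stood at 82.3 against 17.6 CPM (2.23), the EGF receptor ligand gene AREG at 33.0 against 8.62 CPM (1.94), and DUSP1, a phosphatase that inactivates MAP kinases, at 212 against 66.8 CPM (1.66). The receptor gene EGFR itself stood at 44.7 against 87.6 CPM (-0.97).

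Genes of the integrated stress response, which is switched on when amino acids or protein folding run short and acts through ATF4, held 10 of 42 members at least 2-fold higher and 0 lower (median 0.59, and 0.51 at 4 Gy). CTH, which makes cysteine from cystathionine, stood at 340 CPM with DZNep and 76.4 CPM with DMSO (2.15). STC2, a secreted glycoprotein, stood at 74.7 against 17.6 CPM (2.08), the lipoprotein receptor gene VLDLR at 46.7 against 14.3 CPM (1.71), and the glutathione-degrading enzyme gene CHAC1 at 40.2 against 13.7 CPM (1.55). GDF15, a stress-induced secreted factor, stood at 36.1 against 10.3 CPM (1.80). The biosynthesis genes PSAT1 (1.26) and ASNS (1.05) were also at least 2-fold higher, whereas DDIT3, a transcription factor of the same response, stood at 8.85 against 16.2 CPM (-0.88). Of 46 endoplasmic reticulum chaperone genes, 1 was higher (HERPUD1, 1.10) and 0 lower, with a median of -0.12. Of 46 heat shock genes, 1 was higher, the small heat shock protein gene CRYAB (124 against 33.7 CPM, 1.89), and 0 lower. The median of that list was -0.30, with the HSP90 genes HSP90AA1 (400 against 793 CPM, -0.99) and HSP90AB1 (1307 against 2484 CPM, -0.93) at its low end. The DMSO 0 Gy library stood apart from the other 3 in these genes. HSP90AA1 was at 312 and 359 CPM in the DZNep and DMSO libraries at 4 Gy, and the summed level of the list was 11870 CPM with DZNep and 17490 CPM with DMSO at 0 Gy against 10370 and 11360 CPM at 4 Gy, where the median was -0.06.

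Lists of adhesion, matrix and developmental signalling genes also held high ratios. The gene lists share members, so their counts are not separate. DKK1 counts in both the YAP and TEAD list and the TGF-beta, BMP, WNT and Notch list. TNS4 counts in both the keratin and the actin lists, and STC2 in both the integrated stress and the hypoxia lists. Of 34 genes activated by YAP and TEAD, which respond to cell shape and contact, 7 were at least 2-fold higher and 1 lower (median 0.50). They included ANKRD1, the matricellular gene CTGF (365 against 98.3 CPM, 1.89), CRIM1 (341 against 132 CPM, 1.37) and the WNT inhibitor gene DKK1 (24.4 against 5.07 CPM, 2.26). The lower member was NT5E, an ectonucleotidase (14.4 against 33.1 CPM, -1.19). Of 51 genes of TGF-beta, BMP, WNT and Notch signalling, 9 were higher and 2 lower (median 0.25), with the ligand gene WNT5A at 60.3 against 23 CPM (1.39) and LRP5 at the low end. Of 22 matrix proteases and their inhibitors, 4 were higher and 1 lower (median 0.42). Among the higher were MMP1, SERPINE2 and the urokinase gene PLAU (149 against 54.9 CPM, 1.44), and the lower member was SPINT1, an inhibitor of epithelial serine proteases (-1.19).

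Epithelial and mesenchymal genes were both represented. Of 27 keratin and epithelial junction genes, 6 were higher by 2-fold or more and 0 lower (median 0.43). KRT8 and KRT18, the keratins of simple epithelia, had log2 ratios of 1.46 and 1.504, the mucin gene MUC1 stood at 110 against 28.5 CPM (1.95), and the junction gene JUP at 1.07. KRT81 (1.79) has a near-identical neighbour, KRT86, and reads of these keratins may be split between them. Of 47 mesenchymal and matrix genes, 7 were higher and 2 lower (median 0.19), among them THBS1, LTBP1 and the integrin gene ITGA3 (74.8 against 24.5 CPM, 1.61). Of 74 genes of actin and contraction, 9 were higher and 4 lower (median 0.20), with the small GTPase gene RHOB at 609 against 170 CPM (1.84) and the smooth muscle actin gene ACTA2 at 3.85 against 13.1 CPM (-1.76). ACTA2 shares its locus with an antisense gene, and whether the counting used strand is not stated.

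Of 140 developmental transcription factors, a class that Polycomb complexes hold silent in many cell types, 40 reached 10 CPM and the rest were not compared. Of the 40, 7 were at least 2-fold higher and 1 lower, and 30 were above 0 (median 0.42). FOXQ1 stood at 18.1 CPM with DZNep and 4.13 CPM with DMSO (2.13), the T-box gene TBX2 at 23.2 against 8.50 CPM (1.45), and the SOX genes SOX4 and SOX9 at 15.4 against 6.11 CPM (1.34) and 135 against 61.6 CPM (1.13). FOXQ1, TBX2 and SOX4 reached 10 CPM with DZNep only. A gene can thus enter the comparison through its higher library alone, in either direction, and the counts of this mostly silent class depend in part on that filter. The ratio of SOX9 rests on the DMSO 0 Gy library, as given with the 4 Gy values below. PBX3 was the member at least 2-fold lower (-1.10). Of 36 cytokine, chemokine and receptor genes, 5 were higher and 2 lower (median 0.20). TNFRSF11B, the decoy receptor osteoprotegerin, stood at 57.8 against 12.8 CPM (2.18), the chemokine gene CCL20 at 13.1 against 2.99 CPM (2.12), and the cytokine gene IL18 at 12.6 against 3.47 CPM (1.85). LIF, a cytokine of the IL6 family, stood at 22.4 against 59.9 CPM (-1.42). NF-kB genes gave 3 higher and 0 lower of 24 (median 0.13), led by the prostaglandin synthase gene PTGS2 (2.10) and the adhesion gene ICAM1 (1.79). Interferon genes gave 1 and 0 of 27, and antigen presentation genes, a list that holds complement regulators, 1 and 0 of 28.

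The transcripts of the drug's own target and of the enzymes downstream of it lay near the middle of the distribution. AHCY stood at 227 CPM with DZNep and 279 CPM with DMSO (-0.30), and at 229 and 292 CPM at 4 Gy. EZH2 stood at 53.8 against 76.4 CPM at 0 Gy (-0.51) and at 48.4 against 48.9 CPM at 4 Gy, so the gap at 0 Gy was not present in the other pair. Of 26 Polycomb subunit genes, 0 were 2-fold or more apart in either direction, with a median of 0.02, or -0.22 among members at 30 CPM or more. Their ratios ran from -0.89 (PHF1, a PRC2 accessory protein) to 0.72 (BMI1, a subunit of PRC1). Of 44 methyltransferase genes, 0 were higher and 2 lower (median -0.02), and these were PEMT (56.4 against 219 CPM, -1.95) and GAMT, the creatine-forming methyltransferase (9.74 against 20.2 CPM, -1.05). Of 15 demethylases, 1 was higher, KDM5B (33.7 against 15.03 CPM, 1.16), and 0 lower. KDM5B stood at 38.4 and 31.1 CPM at 4 Gy (0.30), so the difference at 0 Gy rests on the low value in the DMSO 0 Gy library.

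In the methionine cycle and sulfur amino acid list, 1 of 22 genes was higher, CTH, and 1 lower, MTR, the methionine synthase (30.4 against 60.9 CPM, -1.0006, or -0.98 with DESeq2's size factors). The median was -0.14. CBS, which forms cystathionine from homocysteine, stood at 52.7 against 31.9 CPM (0.72). Of 13 polyamine genes, both members that were at least 2-fold higher break polyamines down. These were SAT1, the spermidine and spermine acetyltransferase (238 against 82.9 CPM, 1.52), and SMOX, the spermine oxidase (255 against 113 CPM, 1.18). The biosynthesis genes ODC1 (-0.24) and SRM (-0.31) lay within 1.5-fold.

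More lipid genes were lower than higher at 0 Gy. Of 42 genes of fatty acid and lipid synthesis and breakdown, 7 were at least 2-fold lower and 2 higher (median -0.28). In the 4 Gy pair 4 were lower and 3 higher (median -0.14). The desaturase genes FADS1 (26.0 against 83.3 CPM, -1.68), FADS2 (-1.35) and SCD (-1.13), the fatty acid synthase gene FASN (-1.20) and the carnitine palmitoyltransferase genes CPT2 (5.52 against 18.7 CPM, -1.76) and CPT1B (-1.34) were among the lower. MGLL, a monoacylglycerol lipase, was higher (23.6 against 8.18 CPM, 1.53). Of 25 cholesterol genes, 2 were lower and 0 higher (median -0.34, against 0.01 at 4 Gy). INSIG1, a sensor of sterols, stood at 24.9 against 77.3 CPM at 0 Gy (-1.63) and 17.2 against 26.5 CPM at 4 Gy, and the DMSO 0 Gy library was the highest of the 4. The other lower gene, the sterol oxidase gene MSMO1 (8.88 against 19.8 CPM, -1.15), stood at 7.09 and 8.10 CPM at 4 Gy, so its difference too rests on the DMSO 0 Gy library.

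Other metabolic genes differed one by one. Of 51 glycolysis and hypoxia genes, 6 were higher and 1 lower (median 0.12), with PDK4, which shuts off pyruvate dehydrogenase, at 46.4 against 9.78 CPM (2.24) and LDHA, lactate dehydrogenase, at 7253 against 5556 CPM (0.38). Of 74 NRF2 target and redox genes, 1 was higher and 3 lower (median -0.02). NQO1 stood at 13290 against 5128 CPM (1.37), while OSGIN1 stood at 12.5 against 43.0 CPM (-1.78), and the other 2 were AKR1B10 and AKR1B15. Of 18 tryptophan and NAD genes, 3 were higher and 2 lower (median 0.10). The NAD-forming enzyme gene NMNAT2 stood at 36.5 against 6.44 CPM (2.50) and the aldehyde oxidase gene AOX1 at 27.6 against 6.10 CPM (2.17), opposite to KMO. IMPDH2, the rate-limiting enzyme of guanine nucleotide synthesis, stood at 39.0 against 114 CPM (-1.54). Among 143 solute carriers, 7 were higher and 4 lower (median 0.09), from SLC6A9, a glycine transporter (1.58), to SLC1A3, a glutamate transporter (-2.46) and SLC6A6, the taurine transporter (85.0 against 249.3 CPM, -1.55).

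Most cytosolic ribosomal protein genes were lower by less than 2-fold. Of 83 cytosolic ribosomal protein genes, 80 had a ratio below 0, with a median of -0.53, yet 2 were at least 2-fold lower and 0 higher. Together they took 5.69% of all counts with DZNep and 7.91% with DMSO. In the 4 Gy pair the shares were 6.51% and 8.06%, and the median was -0.24. RPL34 (14.96 against 30.9 CPM, -1.05) and RPS12 (184 against 379 CPM, -1.04) were the lowest, and RPL13A stood at 2731 against 5087 CPM (-0.90). Ribosomal protein transcripts are short, and 65 of the 83 fell in the shortest of 5 equal classes of mRNA length (GENCODE). That class as a whole had a median of -0.09, or -0.06 without the ribosomal protein genes, and the longest class 0.05. The part of transcript length in the shift of the list was not tested. Many ribosomal protein genes have processed pseudogenes, and how reads that match several places were counted is not given in the sources used here.

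Of 55 translation factors, 46 were below 0, 2 at least 2-fold lower and 0 higher (median -0.29). The 2 were the poly(A)-binding protein genes PABPC1 (391 against 809 CPM, -1.05) and PABPC4 (144 against 350 CPM, -1.28). Host genes of small nucleolar RNAs, most of which carry the same kind of growth-regulated start as ribosomal protein genes, held 9 of 10 members below 0 and 2 at least 2-fold lower (median -0.76), with SNHG8 at 8.43 against 33.5 CPM (-1.99) and SNHG7 at 12 against 27.6 CPM (-1.20). Mitochondrial ribosomal protein genes did not share the shift, with a median of 0.03 and 34 of 66 above 0. Aminoacyl-tRNA synthetase genes had a median of -0.06, with 14 of 32 above 0, and VARS2 was the member at least 2-fold higher (1.76). The 61 genes of ribosome biogenesis and MYC had a median of -0.04 with 0 higher and 0 lower, and among them MYC itself stood at 499 against 302 CPM (0.73) and the nucleolar gene NPM1 at 3193 against 5027 CPM (-0.65). Respiratory chain subunits had a median of -0.31 with 66 of 77 below 0, and -0.05 in the 4 Gy pair. NDUFV3, a complex I subunit, was the lowest (35.8 against 90.5 CPM, -1.34).

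Cell cycle genes were a little lower at 0 Gy, with shares past 2-fold lower near that of all genes. These shares were 3.12% of mitosis, 4.69% of S phase and 3.85% of G1 genes, against 3.61% of all genes. Of 64 mitosis genes, 53 were below 0 and 2 at least 2-fold lower, with a median of -0.42. In the 4 Gy pair the same genes had a median of 0.30. HMMR, a spindle protein, stood at 22.9 against 52.0 CPM (-1.18), TROAP, a spindle-pole protein, at 44.8 against 100.4 CPM (-1.16), and the checkpoint kinase gene BUB1 at 82.6 against 152 CPM at 0 Gy (-0.88) and 79.4 against 72.6 CPM at 4 Gy. For BUB1 and TROAP the DMSO 0 Gy library was the highest of the 4. Of 64 S phase genes, 51 were below 0 and 3 at least 2-fold lower (median -0.29, and -0.02 at 4 Gy), including the histone chaperone gene ASF1B (13.3 against 41.9 CPM, -1.66) and TIMELESS, a protein of the replication fork (13.4 against 31.0 CPM, -1.21). Of 26 genes of G1 control, 1 was lower, E2F5 (-1.59), and 0 higher, with CCND1 at 87.9 against 49.1 CPM (0.84). CDKN1A, an inhibitor of cyclin-dependent kinases, stood at 251 against 201 CPM (0.32). DNA repair genes had a median of -0.24 at 0 Gy and -0.03 at 4 Gy. Of 66, 0 were higher and 1 lower, UBE2T, which was high in the DMSO 0 Gy library alone (given with the 4 Gy values below). Apoptosis genes had a median of 0.05 with 2 of 39 higher and 0 lower.

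**Figure D3:**
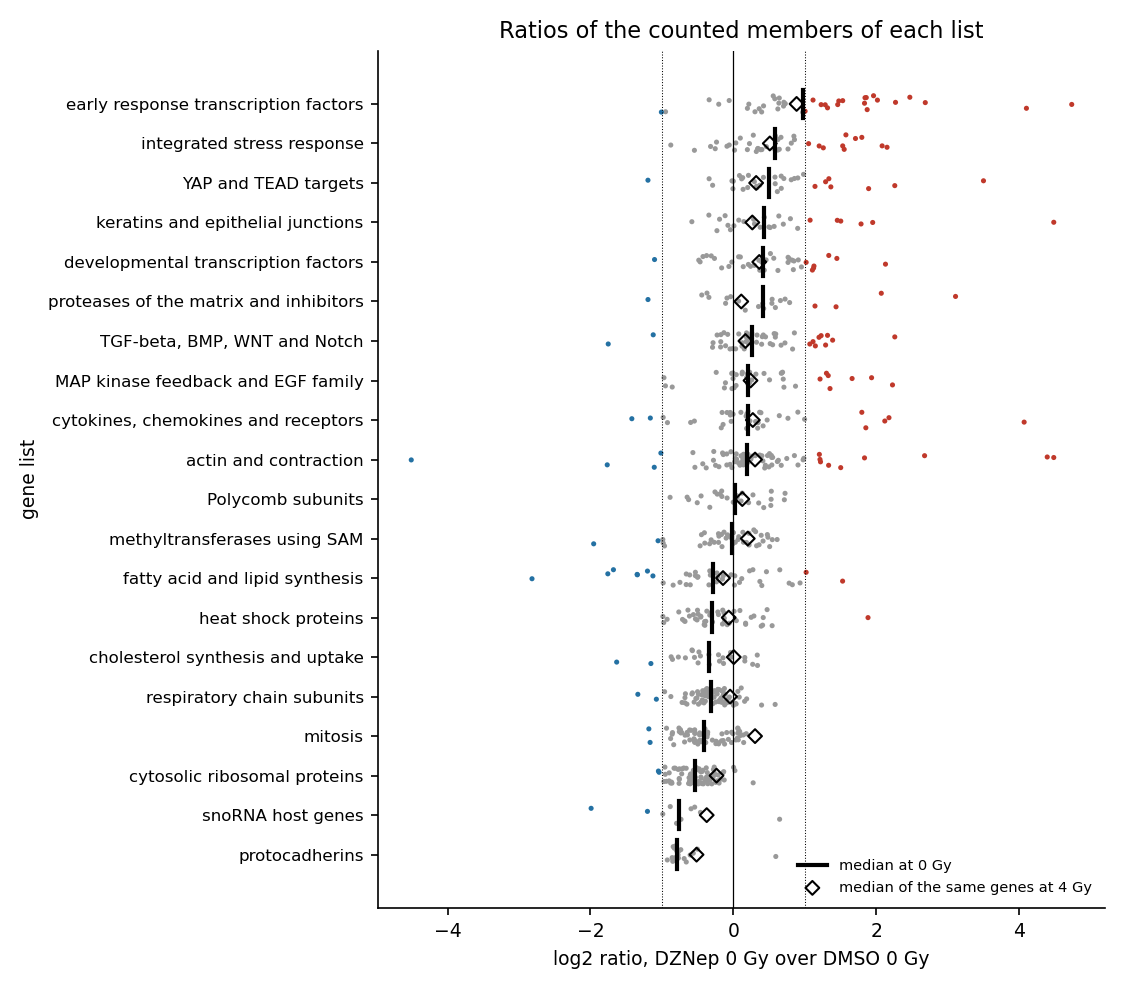
Log2 ratio at 0 Gy (horizontal) of every counted member of 20 gene lists, 1 point a gene, red for at least 2-fold higher and blue for at least 2-fold lower with DZNep. Bars mark the list's median at 0 Gy and open diamonds the median of the same genes in the 4 Gy pair; early response genes lie farthest to the right (0.97 and 0.89), and for mitosis genes bar and diamond lie on opposite sides of 0 (-0.42 and 0.30).

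Families defined by symbol alone were mostly even. Of 104 zinc finger genes, 3 were higher and 3 lower (median 0.05), and of 68 RAB and RAS family GTPase genes, 3 and 2. Long non-coding RNA symbols leaned lower: of 148, 16 were at least 2-fold lower and 6 higher (median -0.17), with LINC00942 at 10.3 against 45.3 CPM (-2.13). The nuclear non-coding RNA NEAT1, which builds paraspeckles, stood at 134 against 47.2 CPM (1.51). Of 24 protocadherin genes, 23 were below 0 (median -0.79), with 0 at least 2-fold lower. All but PCDH7 and PCDH11X belong to the gamma cluster, whose members share their last exons, and levels such as those of PCDHGA7 (17.4 against 31.2 CPM), PCDHGA8 (17.7 against 31.9 CPM) and PCDHGA9 (17.9 against 32.2 CPM) were nearly the same, so these are not separate measurements.

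The 4 Gy libraries gave a pair that the choice of genes did not use and that shares no library with the 0 Gy pair. With DZNep at 4 Gy, 2.95% of the 8143 genes were past 2-fold in the higher direction and 3.39% in the lower. Of the 294 genes higher at 0 Gy, 160 (54.4%) were at least 2-fold higher at 4 Gy too, and 291 had a ratio above 0. Of the 294 lower genes, 162 (55.1%) were at least 2-fold lower, and 287 had a ratio below 0. Over all genes compared, 75.5% had the same direction in both pairs, and the log2 ratios correlated at r = 0.77 (rho = 0.70) across genes, which are not independent replicates. The ratios were smaller at 4 Gy: the median of the higher genes was 1.37 at 0 Gy and 1.05 at 4 Gy, and that of the lower genes -1.31 and -1.09. Genes chosen for a large ratio in a pair tend to have a smaller ratio in any other pair, and the part of this and of radiation in the drop cannot be told apart. Some leading genes fell back further than that. PDK4 stood at 52.6 against 34.8 CPM at 4 Gy (0.59, against 2.24 at 0 Gy) and CTGF at 262 against 174 CPM (0.58, against 1.89).

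**Figure D4:**
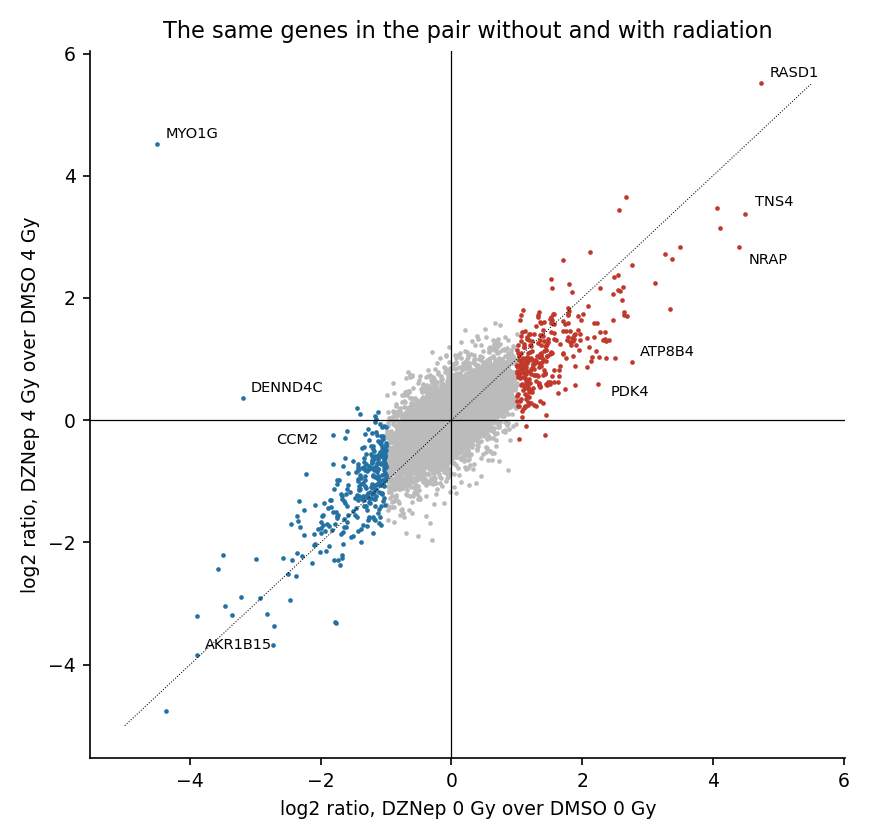
Log2 ratio of DZNep over DMSO at 0 Gy (horizontal) and at 4 Gy (vertical) for 8143 genes, with the 294 higher genes at 0 Gy in red, the 294 lower in blue, and a dotted line where both ratios are equal. Red points lie above 0 on the vertical axis for 291 genes and blue points below 0 for 287, and MYO1G stands alone at the upper left (-4.51 and 4.51).

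In 20 of the 588 genes the difference rested on 1 library: that library was at least 2-fold from each of the other 3, which lay within 1.5-fold of each other. For 16 of them it was the DMSO 0 Gy library, 11 genes low in it and 5 high. SOX9 stood at 61.6 CPM there against 135, 166 and 141 CPM in the DZNep 0 Gy, DZNep 4 Gy and DMSO 4 Gy libraries, and CCM2, a scaffold of vascular signalling, at 87.1 against 28.8, 33.7 and 38.2 CPM. LRR1 (53.3 against 20.2, 18.7 and 17.3 CPM) and the ubiquitin-conjugating enzyme gene UBE2T (128 against 59.9, 55.4 and 57.9 CPM) were likewise high in it, and TMEM150A (6.08 against 20.4, 22.4 and 15.7 CPM) and RPH3A (8.44 against 22.9, 19.1 and 18.0 CPM) were low in it. For these genes the DZNep 0 Gy library was like both 4 Gy libraries.

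For 4 genes it was the DZNep 0 Gy library, and all 4 were low in it. The largest was DENND4C, a regulator of vesicle transport, at 14.9 CPM with DZNep and 137.1 CPM with DMSO at 0 Gy (-3.20), against 150.2 and 117 CPM at 4 Gy. DENND4C lies tail to tail with the ribosomal protein gene RPS6, and without knowledge of strand use in the counting, reads of these neighbours cannot be told apart. MYO1G, an unconventional myosin of blood cells, was the 1 gene at least 2-fold apart in opposite directions: it stood at 0.788 CPM with DZNep and 18.3 CPM with DMSO at 0 Gy, and at 1.37 and 0.0445 CPM at 4 Gy. Its high value was in the DMSO 0 Gy library, with 2530 counts against 5 to 156 in the others.

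Place on the chromosome was looked at after the values had been seen, by the order of protein-coding genes in RefSeq, which placed 7747 of the 8143 genes (95.1%). Of these, 10% lay among the outermost 50 genes of a chromosome end. Of the 264 lower genes placed, 47 (17.8%) lay there, and of the 279 higher genes 15 (5.38%). In the 4 Gy pair the shares were 15.7% of lower and 9.13% of higher genes. By distance, the percentage of genes at least 2-fold lower was 7.04 in the outermost 10, 6.64 in places 11 to 25, 5.33 in 26 to 50, 4.77 in 51 to 100, 3.39 in 101 to 200 and 2.75 farther in. The outer group held FAM19A5 on chromosome 22, DLGAP1 on chromosome 18, PCBP3 on chromosome 21 and C7orf50 on chromosome 7. By gene length in 5 classes, the longest genes at the ends were lower in 15 of 132 (11.4%), and the longest genes farther in, in 2.82%. In the shortest class the shares were 2.7% at the ends and 2.27% farther in. Chromosome 21 had 8 of 73 genes at least 2-fold lower and 0 higher, with a median of -0.26. Neighbouring genes share reads, copy number and sequence composition, and their part in these shares was not tested.

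**Figure D5:**
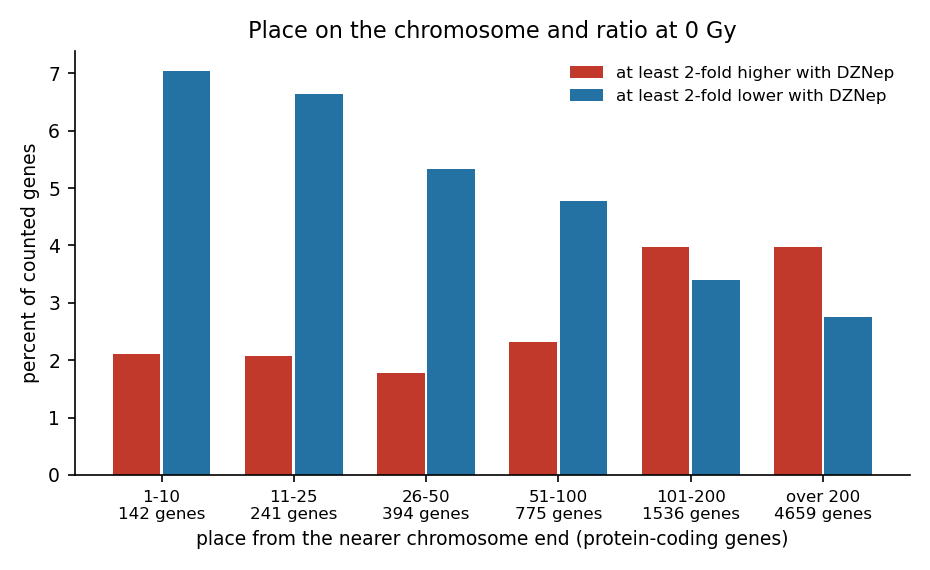
Percentage of counted genes at least 2-fold higher (red) and lower (blue) with DZNep at 0 Gy, by place from the nearer chromosome end in the order of protein-coding genes, with the number of genes under each pair of bars. The blue bars fall from 7.04% at the ends to 2.75% in the interior, and the red bars stand at 1.78% to 2.32% up to place 100 and at 3.97% farther in.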

How the data were processed

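RNA was measured in 4 libraries of NCI-H460 cells, 1 each for DMSO and DZNep at 0 and 4 Gy. Trizol was used to extract total RNA and the SENSE mRNA kit of Lexogen, which selects polyadenylated RNA, to build the libraries, per the labels' protocols. The deposited tables, 1 a library, hold the authors' raw counts for each symbol, without normalization. The submitters' processing notes name TopHat, edgeR and hg19. Not given in the sources used here are their versions, the annotation, the program that counted reads, and whether it used strand.

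Counts were scaled with the TMM method of edgeR 4.0.16 (R 4.3.3), fitted on the 13378 genes at 1 CPM or more in at least 2 libraries, with factors of 0.979 to 1.01. The log2 ratio of a gene is that of scaled CPM with a prior count of 2, so it understates large ratios of low genes. Symbols at 10 CPM or more in the higher 0 Gy library were kept, 88 of them short RNAs that a poly(A) library cannot measure apart from their hosts, and a gene at least 2-fold apart was counted. The 95% intervals are exact conditional binomial ones without the prior count. Even numbers were 55.9% to 58.1% of the counts between 1 and 59, depending on the library. Read mates may thus have been counted separately, which would make the intervals too narrow. Other tools were Python 3.11.15, pandas 2.3.3, scipy 1.17.1 and, for an alternative scaling, DESeq2 1.42.0. The ratio, interval and counting steps were tested on simulated counts of known fold.

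The members, the 54 gene lists, the alternatives and the choice of genes to name were made with earlier results of these data known. Named were, at 10 CPM or more and without short RNAs, the 15 highest and 15 lowest ratios, the 10 highest and 10 lowest at 100 CPM or more, the 10 largest gains and losses in CPM, up to 4 members of each list with the largest ratios, up to 10 genes resting on 1 library, those opposite at 4 Gy, and AHCY, EZH2, MYC, KRT8, KRT18 and CDKN1A. Other list members and markers were named after their values were seen. Not every gene so chosen is reported here. Gene order and gene length came from RefSeq (GRCh38.p14), another build than that of the counts, so no coordinates of the counted genes were used. Promoters are on that RefSeq build. The mRNA length of a symbol was the median over its protein-coding transcripts in GENCODE. Alternatives were other scalings, prior counts, filters, fold thresholds, halved counts and leaving out short RNAs.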

Additional observations from a re-analysis of the deposited data

Results flagged for a closer look

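MYO1G had a log2 ratio of DZNep over DMSO of -4.51 at 0 Gy and 4.51 at 4 Gy, so the pairs moved in opposite directions. Only the DMSO 0 Gy library reached 10 CPM (18.3 CPM). The 4 Gy ratio compares 1.37 with 0.0445 CPM (156 and 5 counts), levels near the floor. With 1 library a group the difference between the pairs was not tested. The median log2 ratio of the mitosis genes was -0.42 at 0 Gy and 0.30 at 4 Gy, again in opposite directions, and that difference was not tested either. These genes took 0.988% of counts in the DZNep 0 Gy library, 1.1% in DMSO 0 Gy, 1.19% in DZNep 4 Gy and 0.825% in DMSO 4 Gy.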

How the results depend on the processing

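No comparison here has a replicate, so no value has an error beyond counting, and no paired analysis was possible because each group is 1 library with 1 replicate number. A model of drug and dose over the 4 libraries, which would take the 4 Gy pair as a repeat, was not run. Depth does not limit genes at 10 CPM or more, which have over 1000 counts in the higher library. The main counts were 294 genes higher, 294 lower, 322 with the same direction past 2-fold at 4 Gy, and 20 resting on 1 library. With a filter at 1 CPM they were 817, 839, 876 and 92, at 30 CPM 169, 140, 162 and 8, with a threshold of 1.5-fold 917, 1016, 1004 and 273, and with 3-fold 91, 92, 96 and 1. The filters change which genes are admitted. The thresholds of 1.5-fold and 3-fold also replace the 2-fold cut in the 4 Gy count and in the rule for resting on 1 library. Plain library size (291 higher, 300 lower), DESeq2's size factors (318 and 270), other prior counts, halved counts, a filter on the mean and leaving out short RNAs kept the 4 counts within 1.5 times. DESeq2's size factors moved the median of all genes by 0.02. Among the genes the rule names, they took the ratio of MTR to -0.98 and that of ABCC9 to 1.01, across the 2-fold threshold. Among the lists, they left 0 early response genes lower and 1 RAB or RAS GTPase gene lower, in place of 1 and 2. A prior count of 10 and halved counts also took MTR just inside 2-fold. The median of the early response list was 0.84 under plain library size and 0.76 with a filter at 1 CPM, and 1.26 at 30 CPM. List medians that changed sign and moved by over 0.1 were those of the Polycomb list (-0.22 at 30 CPM) and, with a filter at 1 CPM, of histone genes (from -0.09 to 0.10), ABC transporters (from -0.05 to 0.05) and markers of other cell types (from -0.64, with COL1A1 the 1 gene compared, to 0.18).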
